A study of Mus musculus with 26 samples.

Results

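The comparison set mouse skin carcinoma lines of spindle morphology against immortalised keratinocyte lines. It took in 10 of the 26 lines of the series: 7 spindle carcinoma lines and 3 keratinocyte lines. The spindle lines (CarB, CarC, A5, H11, D3, D3DP and MSN2) were chosen because their cell type label names spindle morphology and their spindle pathology flag is 1. The keratinocyte lines were chosen by the cell type label alone. C5N and NK carry a keratinocyte flag of 1. The other keratinocyte line carries a flag of 0 and is called the unflagged keratinocyte line here. NK came from a mouse null for 1 gene, the unflagged line is titled as null for another gene, and for the spindle lines no mouse strain, allele or agent is stated. Each line was grown in serum without further treatment, harvested in log phase and measured once, on an Affymetrix M430 2.0 array. Values are log2 RMA values, in which a difference of 1 is a 2-fold difference. Since each line has 1 array, p-values measure the spread between lines and not between cultures of a line, and 3 arrays on 1 side set how precise any difference can be. The question was which transcripts separate the spindle end of skin carcinoma from keratinocytes when the wide spread of the carcinoma lines without spindle pathology does not enter the error.

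Keratinocytes of the basal epidermis are held to each other by adherens junctions and desmosomes and to the basement membrane by hemidesmosomes, and their cytoskeleton is built from paired keratins. In an epithelial-mesenchymal transition (EMT) transcription factors of the Zeb, Snail, Twist and Prrx families repress junction genes such as that of E-cadherin, and the cells take up vimentin, fibrillar collagens and an elongated shape. Spindle cell carcinoma of mouse skin is a textbook case of such a shape change in a squamous tumour.

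Some spindle lines lay close to each other. Over the 11704 genes tested, A5 and H11 correlated at 0.986, and D3DP and MSN2 at 0.971. Correlations within the spindle group ran from 0.797 to 0.986, within the keratinocyte group from 0.872 to 0.906, and between the groups from 0.692 to 0.830. How the close lines are related is not stated in the labels used here. Averaging D3 with D3DP and MSN2, A5 with H11 and CarC with CarB leaves 3 against 3, and that fit, chosen after seeing the data, is given beside the main counts. As a check of the labels, all 9 measured basal keratinocyte markers lay above the array median in each of the 3 keratinocyte lines, the unflagged line included. Between 4 and 6 of the 9 did so in each spindle line.

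Of the 11704 genes tested, 1297 differed (limma, adjusted p under 0.05), which is 11.1%. In the spindle lines 667 genes were higher (5.70%) and 630 were lower (5.38%). The difference was 2-fold or more for 993 of them. Calling favours genes whose groups lie apart, so a statement below that the groups did not overlap describes the values and adds no support to a call. With close arrays averaged 289 genes were called, 96 higher and 193 lower, and 286 of these were among the 1297, all in the same direction. Differences of 4 log2 units or more were more often falls, with 92 lower and 36 higher. Of those 92 genes 39 lay below the array median in all 7 spindle lines, and 15 of the 36 did so in all 3 keratinocyte lines. RMA values that low are compressed, so such differences, rises and falls alike, can understate the change, and their rank is only that of the measured values.

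**Figure D1:**
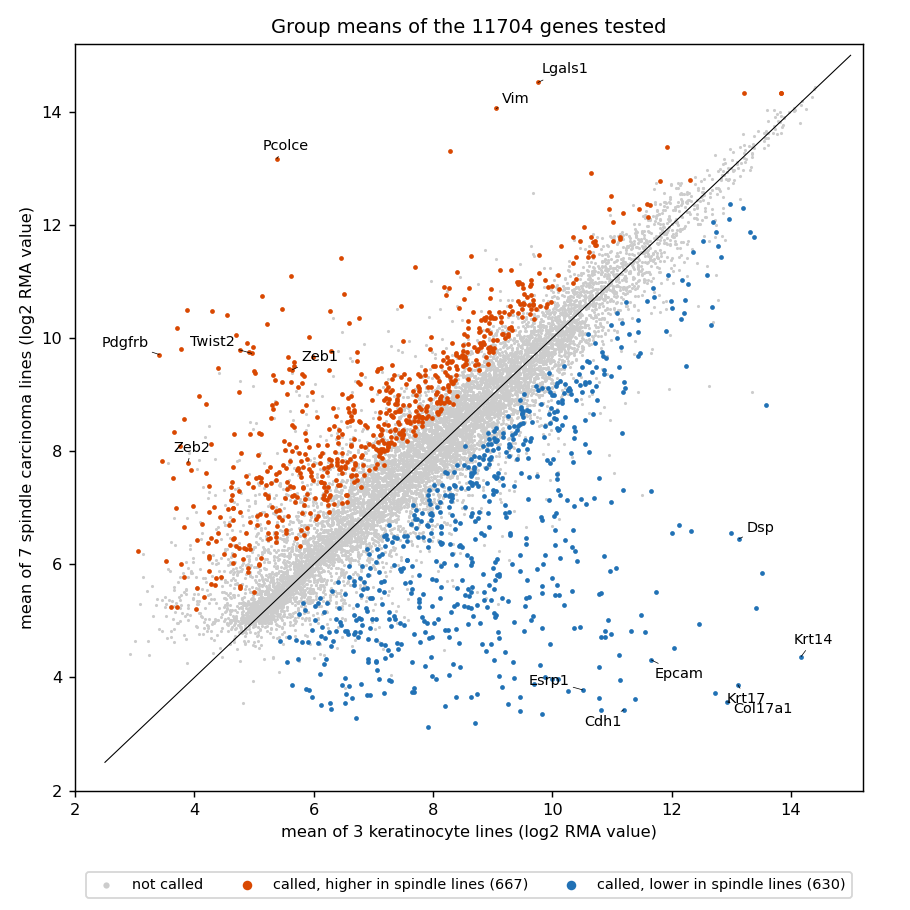
Mean log2 RMA value of each of the 11704 genes tested in the 3 keratinocyte lines (x axis) and in the 7 spindle carcinoma lines (y axis), with the diagonal of equal means. Called genes are coloured (667 higher, 630 lower). Krt14 and Col17a1 lie at the lower right and Pcolce, Vim and Lgals1 at the top.

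The cadherins that fell were the epithelial ones. Cdh1, the gene of E-cadherin, ran from 3.02 to 3.78 in the spindle lines with a median of 3.38, and stood at 10.46 in the unflagged keratinocyte line, 11.55 in C5N and 11.60 in NK. The groups did not overlap, and Cdh1 fell by 7.77 (SE 0.28, limma adjusted p = 5.53e-08, and 0.000475 with close arrays averaged). Cdh3, the gene of P-cadherin, fell by 3.20 (SE 0.27, adjusted p = 4.68e-05), with spindle lines at 5.60 to 6.69 and keratinocyte lines at 9.88, 9.02 and 9.77. Cdh3 therefore kept a level above the array medians of 5.04 to 5.15 in every spindle line, while Cdh1 lay below them. Ctnnd1, the gene of p120-catenin, which holds cadherins at the membrane, fell by 1.36 (SE 0.32, adjusted p = 0.0239, and 0.205 with close arrays averaged).

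N-cadherin, whose gain is often paired with the loss of E-cadherin, did not pass the test. Cdh2 stood at 8.49 in D3, 8.23 in D3DP, 9.43 in A5, 8.44 in MSN2, 9.18 in H11, 6.87 in CarB and 3.87 in CarC, against 4.19 in the unflagged keratinocyte line, 3.57 in C5N and 7.74 in NK. CarC was as low as the unflagged line and C5N, and NK lay above CarB and CarC. The difference was 2.62 (SE 1.23, adjusted p = 0.213), and of the fits without 1 line only that without CarC called it (3.27, adjusted p = 0.0443). The other 9 did not (adjusted p up to 0.501), nor did the fit with close arrays averaged (0.442). Cdh11, a cadherin of mesenchymal cells, was high in CarC (7.99) and NK (8.28) and at 5.67 or less in the other lines, with an adjusted p of 0.869. Of the 12 measured cadherin and catenin genes 11 were tested and 3 fell. Neither Ctnnb1 (-0.09, adjusted p = 0.828) nor Ctnna1 (0.83, adjusted p = 0.489), the genes of beta- and alpha-catenin, was called, and both changed sign without C5N (0.17 and -0.28). The median difference over the 12 was -0.23, beside 0.04 over all 18193 genes measured, and 2 fell with close arrays averaged.

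Of 25 measured genes of the epithelial junctions and membrane 18 were tested, 13 fell and the other 5 did not pass the test, and the median difference over the 25 was -3.14. Because a gene could pass the filter on low values through the 3 keratinocyte lines alone, medians of the lists are given over all measured members. Counts are read beside the 5.38% of tested genes called lower and the 5.70% called higher. Counts with close arrays averaged are read beside the 193 lower and 96 higher among the 11704 genes of that fit. Epcam, an epithelial adhesion protein, stood at 3.86 to 4.62 in the spindle lines and at 10.13, 12.71 and 12.16 in the unflagged line, C5N and NK, and fell by 7.36 (SE 0.45, adjusted p = 4.07e-06). The only other probe set of Epcam differed by -0.70 and was not called. Cdcp1, a membrane glycoprotein of epithelial cells, fell by 6.10 (SE 0.31). St14, the gene of the membrane protease matriptase, fell by 4.65 (SE 0.26). The claudin gene Cldn4 fell by 4.70 (SE 0.67, adjusted p = 0.00164), from a wide keratinocyte range of 7.65 to 11.63, and was not called with close arrays averaged (adjusted p = 0.0729). In that fit 8 members of the list were lower.

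Ocln, the gene of the tight junction protein occludin, depended on the unflagged keratinocyte line. It was at 3.41 there, as low as in the spindle lines (3.45 to 5.06), and at 9.26 in C5N and 9.21 in NK. The difference of -3.25 was not called with all 3 keratinocyte lines (adjusted p = 0.0817). With only C5N and NK left it was -5.19. Ocln was picked because the unflagged line stood apart, so the fit without that line is no test of it.

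Of 22 measured transcription and splicing regulators of epithelial cells 16 were tested, 9 fell and 7 did not pass, with a median of -1.88 over the 22, and 5 were lower with close arrays averaged. Esrp1, a splicing factor that sets epithelial isoforms, ran from 3.51 to 4.31 in the spindle lines against 10.28, 10.95 and 10.28 in the keratinocyte lines, and fell by 6.72 (SE 0.22, adjusted p = 2.74e-08). Its relative Esrp2 fell by 4.23 (SE 0.23), and Grhl2, a transcription factor that activates junction genes, by 4.19 (SE 0.21, adjusted p = 8.11e-07). The only other tested probe set of Esrp2 differed by -0.72 and was not called. The other 2 of Grhl2 were called lower, by -0.90 and -0.67. All 3 genes lay at 5.85 or less in every spindle line, and no spindle line reached the keratinocyte range. Trp63, the master regulator of stratified epithelium, fell by 5.91 (SE 0.68, adjusted p = 0.000436), with 6 spindle lines at 4.24 to 5.0 and CarC at 7.78. Klf4, a factor of differentiating epidermis, fell by 2.03 (SE 0.31, adjusted p = 0.00258, and 0.0539 with close arrays averaged), to a range of 8.06 to 9.20 in the spindle lines.

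Zeb and Snail proteins are known to bind the E-box CACCTG, and whether they act on the genes here was not tested. As a description of the promoters, CACCTG or its reverse complement CAGGTG was looked for in the 250 bases before each RefSeq gene start (GRCm38.p6), without regard to where in the window it fell, and it was chosen after the expression values were seen. Of all 27025 genes with a promoter entry 19.4% held it in at least 1 entry, and of the 32851 single entries 17.2% did. Of genes tested the share was 18.4%, of genes called higher 16.5% (87 of 528 with an entry) and of genes called lower 28.5% (139 of 487). Among the members called lower in the lists of cadherins, junctions, regulators, desmosomes, hemidesmosomes and keratins, 25 of 46 had an entry and 15 of the 25 held the motif. Cdh1, Esrp1 and Grhl2 had no entry and are not in that share. Of tested members of these lists that were not called lower, 7 of 18 with an entry held it, a share of 38.9% beside the 60% of those that fell. In the lists of EMT factors, mesenchymal cytoskeleton, collagens and collagen enzymes 1 of 12 called higher held it. These are shares without a test, base composition was not matched, and a match is not a bound site.

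The promoters that follow were picked for their copies of the motif: they include 5 of the 6 list members called lower that held 2 or more, while 10 of the 25 with an entry held 0. Capitals mark CACCTG or CAGGTG, and each run is the 250 bases before the start, read 5′ to 3′ on the gene's strand, from RefSeq GRCm38.p6. Epcam (chr17:87635729-87635978, plus strand) and Rab25 (chr3:88548280-88548529, minus strand) held 2 copies each, Lsr (chr7:30973470-30973719, minus strand) and Ap1m2 (chr9:21312334-21312583, minus strand) held 4 each, and Spint2 (chr7:29281978-29282227, minus strand) held 3. Krt5 (chr15:101712906-101713155, minus strand) held 1, while Krt14 (chr11:100206031-100206280, minus strand), the gene with the largest measured fall, held 0. Pcolce (chr5:137611405-137611654, minus strand), the gene with the largest measured rise, held 1.
Epcam: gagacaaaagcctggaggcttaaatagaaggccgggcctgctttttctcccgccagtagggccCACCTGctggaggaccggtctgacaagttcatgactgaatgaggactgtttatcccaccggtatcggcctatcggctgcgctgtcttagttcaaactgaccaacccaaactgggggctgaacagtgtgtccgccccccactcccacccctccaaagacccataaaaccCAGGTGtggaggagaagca
Rab25: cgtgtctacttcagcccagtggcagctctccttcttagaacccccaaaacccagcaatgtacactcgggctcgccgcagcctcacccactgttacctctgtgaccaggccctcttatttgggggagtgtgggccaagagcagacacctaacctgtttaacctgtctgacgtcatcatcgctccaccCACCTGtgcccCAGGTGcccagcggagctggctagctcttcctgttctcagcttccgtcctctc
Lsr: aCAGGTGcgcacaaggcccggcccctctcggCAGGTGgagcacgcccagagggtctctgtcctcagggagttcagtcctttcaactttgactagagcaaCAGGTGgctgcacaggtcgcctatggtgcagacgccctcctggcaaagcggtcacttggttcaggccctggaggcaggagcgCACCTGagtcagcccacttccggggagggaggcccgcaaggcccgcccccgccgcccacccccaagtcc
Ap1m2: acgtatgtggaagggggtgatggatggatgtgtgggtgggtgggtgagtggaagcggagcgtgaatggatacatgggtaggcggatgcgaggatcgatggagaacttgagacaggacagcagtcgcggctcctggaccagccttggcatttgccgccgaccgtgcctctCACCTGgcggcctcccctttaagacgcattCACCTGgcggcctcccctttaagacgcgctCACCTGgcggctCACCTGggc
Spint2: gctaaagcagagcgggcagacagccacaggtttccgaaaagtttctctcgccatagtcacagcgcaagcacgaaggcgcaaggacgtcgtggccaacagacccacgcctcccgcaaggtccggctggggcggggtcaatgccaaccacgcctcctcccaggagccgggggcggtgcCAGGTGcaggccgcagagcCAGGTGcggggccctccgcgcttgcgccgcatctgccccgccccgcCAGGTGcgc
Krt5: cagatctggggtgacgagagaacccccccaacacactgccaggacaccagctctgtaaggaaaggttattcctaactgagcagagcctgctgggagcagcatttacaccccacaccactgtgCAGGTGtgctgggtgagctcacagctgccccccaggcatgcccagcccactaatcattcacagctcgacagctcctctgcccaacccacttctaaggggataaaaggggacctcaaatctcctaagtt
Krt14: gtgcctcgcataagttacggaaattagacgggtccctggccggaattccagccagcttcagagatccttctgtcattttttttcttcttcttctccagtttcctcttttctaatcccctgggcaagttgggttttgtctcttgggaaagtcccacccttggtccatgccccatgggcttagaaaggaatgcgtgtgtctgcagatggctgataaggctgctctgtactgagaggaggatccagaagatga
Pcolce: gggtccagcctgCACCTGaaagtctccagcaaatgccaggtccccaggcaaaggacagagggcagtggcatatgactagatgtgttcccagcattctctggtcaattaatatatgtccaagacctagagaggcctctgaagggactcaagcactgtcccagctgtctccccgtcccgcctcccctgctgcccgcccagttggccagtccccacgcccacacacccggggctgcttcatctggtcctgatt

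In the order of the lines above, Rab25, a small GTPase of epithelial membrane traffic, fell by 4.21. Lsr, a protein of tricellular junctions, fell by 3.45, Ap1m2, an epithelial clathrin adaptor subunit, by 3.01, and Spint2, an inhibitor of membrane proteases, by 3.87.

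The desmosome was lower in 7 of 11 measured genes, of which 9 were tested, and the median over the 11 was -3.73. The desmosomal cadherin Dsc3 lay at 3.34 to 4.09 in the spindle lines and at 11.69, 10.95 and 11.54 in the keratinocyte lines, a fall of 7.78 (SE 0.21, adjusted p = 7.78e-09). The plaque genes Pkp1 and Jup fell by 5.46 (SE 0.39) and 3.73 (SE 0.23). With close arrays averaged 7 genes of the list were lower.

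The spindle lines spread widely in Dsp and Perp. Dsp, the gene of the desmosomal linker desmoplakin, stood at 7.10 in D3, 8.0 in D3DP, 9.80 in MSN2, 6.51 in A5, 6.77 in H11, 3.23 in CarC and 3.74 in CarB, and at 13.25, 13.05 and 13.10 in the keratinocyte lines. All spindle lines were below all keratinocyte lines. The fall of 6.68 (SE 1.23, adjusted p = 0.00692, and 0.0414 with close arrays averaged) averages over spindle values of 3.23 to 9.80. Perp, a desmosome-associated membrane protein, was at 8.92 to 10.49 in 6 spindle lines and at 3.96 in CarC, against 13.86, 12.83 and 13.35. Its difference of -4.31 (SE 1.24) missed the threshold (adjusted p = 0.0519) although the groups did not overlap. Without CarC it was -3.46 (SE 0.37, adjusted p = 0.000465). The other 9 fits without 1 line did not call it (adjusted p up to 0.14), nor did the fit with close arrays averaged (0.1).

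The exception among desmosome genes was the plakophilin gene Pkp2, which is known from simple epithelia and heart. Pkp2 stood at 7.16 to 9.18 in the spindle lines, and at 3.88 in the unflagged keratinocyte line, 7.26 in C5N and 4.10 in NK. C5N lay just above the lowest spindle line, H11, so the groups overlapped. Pkp2 rose by 3.24 (SE 0.70, adjusted p = 0.016), and the call was lost without the unflagged line or NK (adjusted p up to 0.0715) and with close arrays averaged (0.177).

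Hemidesmosome and basement membrane genes fell in 7 of 13 measured members (12 tested), with a median of -1.87, and 5 were lower with close arrays averaged. Col17a1, a transmembrane collagen of the hemidesmosome, was at 3.20 to 3.88 in the spindle lines against 13.71, 12.67 and 12.38, and fell by 9.35 (SE 0.28, adjusted p = 1.3e-08). Itgb4, the gene of the hemidesmosomal integrin beta4 chain, fell by 5.07 (SE 0.59), and A5, H11 and CarB (5.90, 6.87 and 7.19) were its highest spindle lines. Lamb3, a chain of the basement membrane laminin, fell by 6.39 (SE 0.68, adjusted p = 0.00024). Lama3, the partner chain of the same laminin, was not called (-4.28, adjusted p = 0.162). It stood at 10.19 in D3, 11.02 in D3DP and 10.40 in MSN2, within the keratinocyte values of 13.57, 9.52 and 11.40, and at 3.96 to 5.55 in A5, H11, CarC and CarB.

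Dst, the gene of dystonin, gave opposite results by probe set. Dystonin has an epithelial product in the hemidesmosome and longer products in other cells. In the fit of every single-gene probe set, 526 genes had 2 or more called probe sets, and Dst and Foxp1 were the 2 with calls in both directions. The probe set of Dst with the largest fall stood at 3.99 to 6.43 in the spindle lines and at 13.12, 11.24 and 11.49 in the keratinocyte lines, a difference of -6.48 (SE 0.65, adjusted p = 0.000169), and another differed by -5.45 (SE 0.56, adjusted p = 0.000188). The brightest probe set stood at 9.20 to 9.96 against 8.85, 8.19 and 8.63, a difference of 1.06 (SE 0.22, adjusted p = 0.0129), and the fourth differed by 0.99 (SE 0.22, adjusted p = 0.0183). The groups did not overlap in any of the 4. The gene-level value of Dst, taken from that probe set, was therefore a rise of 1.06, and the mean of its probe sets a difference of -2.47 (adjusted p = 0.00163). The gene-level rise was not called without C5N (adjusted p = 0.0563) or with close arrays averaged (0.132). Which transcripts each probe set reads was not tested. In Foxp1, a forkhead transcription factor, 6 probe sets were higher by 0.67 to 0.91 and 1 was lower by 0.60.

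**Figure D2:**
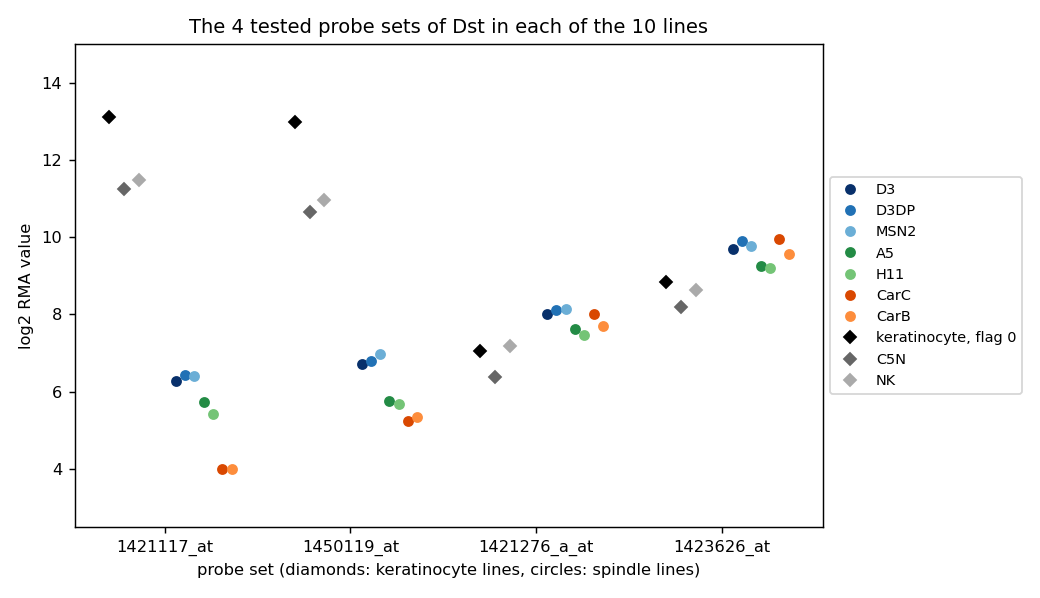
Log2 RMA values of the 4 tested probe sets of Dst in the 3 keratinocyte lines (diamonds) and the 7 spindle lines (circles). The 2 probe sets on the left are lower in all spindle lines (-6.48 and -5.45) and the 2 on the right are higher in all of them (0.99 and 1.06).

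Keratins of the basal and hyperproliferative epidermis made up 4 of the 10 largest measured falls. Krt14, first of them, stood at 4.08 to 4.69 in the spindle lines and at 14.39, 13.99 and 14.12 in the keratinocyte lines, a fall of 9.79 (SE 0.17, adjusted p = 2.9e-10). Its partner Krt5 fell by 8.19 (SE 0.24), from 13.97, 13.42 and 12.86 to a range of 4.96 to 5.60. Krt17 fell by 9.24 (SE 0.15) and Krt6a by 7.66 (SE 0.22), both keratins of activated epidermis. Spindle values of Krt14 and Krt17 were below the array median in every line. Of 18 measured keratins 11 were tested and 7 fell, with a median of -0.92 over the 18, and 5 fell with close arrays averaged. Keratin genes are near-identical copies in part, so signal of Krt6a, Krt6b, Krt14, Krt16 and Krt17 can be shared between probe sets.

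The simple-epithelium keratins Krt8 and Krt18 did not follow, and neither was called. Krt8 stood at 11.39 in D3, 9.15 in D3DP, 11.46 in MSN2, 10.48 in CarC, 5.59 in A5, 5.73 in H11 and 5.02 in CarB, and at 4.89, 5.04 and 5.03 in the keratinocyte lines (3.41, adjusted p = 0.194). D3, D3DP, MSN2 and CarC were thus far above all keratinocyte lines and the other 3 spindle lines were near them. Krt18, its pairing partner, was at 11.27 to 12.01 in D3, MSN2, A5 and H11, at 9.85 in D3DP and at 6.0 in CarC and 6.60 in CarB, against 8.57, 9.45 and 3.88 in the keratinocyte lines (2.56, adjusted p = 0.364). A5 and H11 were thus high for Krt18 and low for Krt8, and CarC the reverse.

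Of 28 measured genes of squamous differentiation 18 were tested and 9 fell, the median over the 28 was -1.72, and 5 were lower with close arrays averaged. Dmkn, a secreted protein of differentiating epidermis, fell by 9.0 (SE 0.19), to 3.38 to 4.07. Sbsn, secreted like Dmkn in the upper epidermis, fell by 5.74 (SE 0.39) and Krtdap by 5.85 (SE 0.63), the latter from a range of 8.51 in C5N to 12.16 in NK. Serpinb5, the gene of maspin, fell by 7.52 (SE 0.18, adjusted p = 4.46e-09). Fxyd3, a regulator of the sodium pump and outside the list, fell by 7.51 (SE 0.35).

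**Figure D3:**
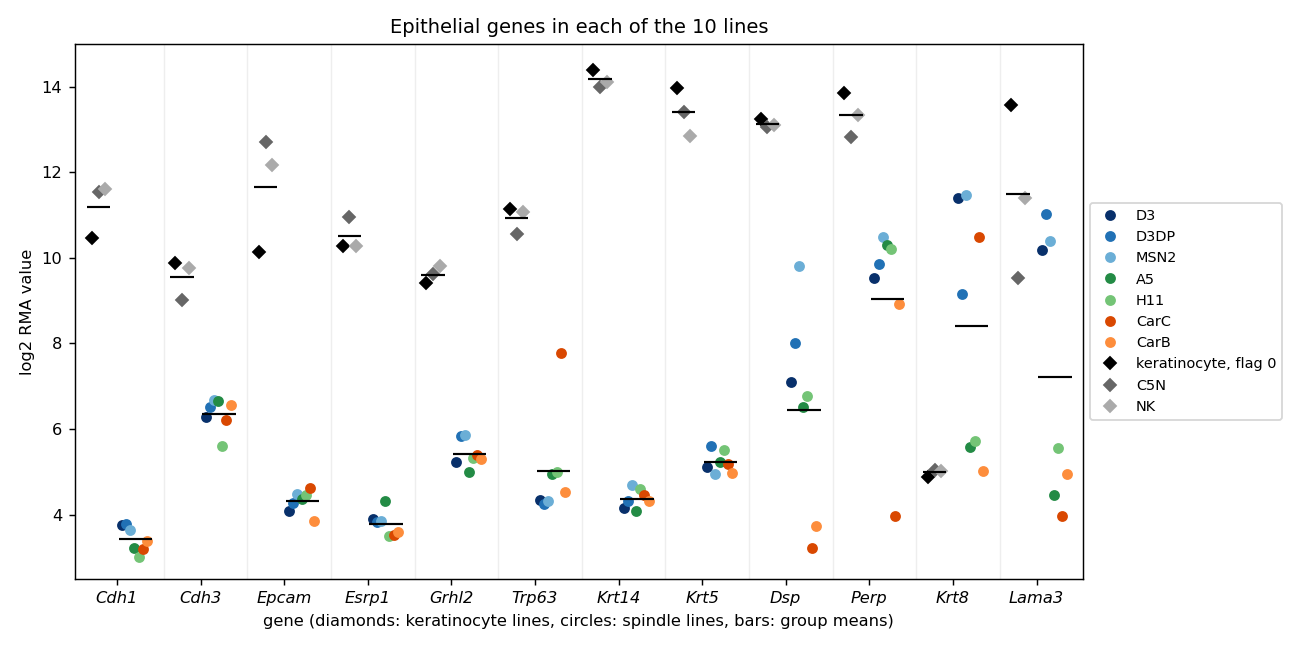
Log2 RMA values of 12 epithelial genes in the 3 keratinocyte lines (diamonds) and the 7 spindle lines (circles), with bars at the group means. Cdh1, Epcam, Esrp1, Krt14 and Krt5 are low in every spindle line, whereas Dsp, Perp, Krt8 and Lama3 spread widely, with CarC at 3.96 for Perp and D3, D3DP and MSN2 high for Lama3.

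Of 12 measured transcription factors of the EMT 6 rose and 1 fell (11 tested, median 2.09), where 5.70% of all genes tested were called higher. Zeb2 stood at 7.36 to 8.34 in the spindle lines and at 4.13, 3.51 and 4.03 in the keratinocyte lines, and rose by 3.91 (SE 0.23, adjusted p = 2.51e-06). Zeb1 ran from 8.83 to 10.82, highest in CarC, against 5.57, 5.86 and 5.50, a rise of 3.80 (SE 0.38, adjusted p = 0.000148). Both repress the gene of E-cadherin, and the groups did not overlap for either. Twist2 rose by 4.77 (SE 0.48, adjusted p = 0.000158), from 5.02, 4.87 and 4.99 to a range of 8.43 to 10.85.

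The remaining members were less even. Twist1 rose by 2.54 (SE 0.54, adjusted p = 0.0149) and C5N at 4.19 was far below the other keratinocyte lines, at 7.25 and 6.75; with close arrays averaged its adjusted p was 0.182. Prrx1, a homeobox factor of mesenchyme, rose by 4.92 (SE 0.95, adjusted p = 0.00902), with a low set of spindle lines (6.48 in D3, 7.11 in A5 and 7.89 in H11) and 4 lines at 10.13 to 10.81. Prrx2 rose by 3.86 (SE 1.04), but D3 at 4.65 lay within the keratinocyte range and the adjusted p of 0.042 rose to as much as 0.128 when 1 line was left out, with the call lost in 9 of those 10 fits (it held without D3). With close arrays averaged 4 members of the list were higher.

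Snail family members did not rise together. Snai2, the gene of Slug, which basal keratinocytes also express, was lower in the spindle lines: 9.62 to 11.55 against 12.48, 12.26 and 11.91, a fall of 1.53 (SE 0.42, adjusted p = 0.043). The groups did not overlap, but the call was lost in 8 of the 10 fits without 1 line (adjusted p up to 0.127, held without D3 or CarC) and with close arrays averaged (0.091). Snai1 was at 4.63 to 7.99 against 4.10, 4.51 and 4.47, highest in CarC and CarB, and was not called (1.65, adjusted p = 0.158). Tcf4, which encodes the E2-2 factor, was at 7.96 to 10.92 against 7.08, 7.60 and 7.58 and was not called (1.56, adjusted p = 0.105). Of the fits without 1 line only that without CarC called it (1.23, adjusted p = 0.0466). The other 9 did not (adjusted p up to 0.25), nor did the fit with close arrays averaged (0.2).

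Of 17 measured genes of the mesenchymal and contractile cytoskeleton, 5 rose and 1 fell (16 tested, median 0.96), and 2 rose and 1 fell with close arrays averaged. Vim, the gene of the intermediate filament vimentin, was at 13.74 to 14.21 in the spindle lines and at 9.38, 10.69 and 7.12 in the keratinocyte lines. The rise was 5.0 (SE 0.57), or 32-fold (adjusted p = 0.000415, and 0.0491 with close arrays averaged). The spindle lines were even and the keratinocyte lines were not, although all 3 were above the array median. S100a4, a calcium-binding protein of motile cells, rose by 5.03 (SE 0.70), to a range of 11.20 to 14.41. Lgals1, the gene of galectin-1, was at 14.44 to 14.58 in the spindle lines against 12.74, 6.25 and 10.30 (4.76, SE 1.01, adjusted p = 0.0146, and 0.196 with close arrays averaged). Cald1, the gene of the actin-binding caldesmon, rose by 0.96 (SE 0.19) and Nes, of the intermediate filament nestin, by 0.58 (SE 0.14), and neither was called with close arrays averaged (adjusted p = 0.102 and 0.172). Without C5N the adjusted p of Cald1 was 0.0509, and the call of Nes was lost without D3DP, A5, H11, C5N or NK (adjusted p up to 0.098). Smooth muscle actin Acta2 (1.67), Tagln (1.36) and Myl9 (1.91), genes of contractile fibroblasts, did not pass the test. Mcam, a cell adhesion molecule that pericytes also carry, fell by 4.80 (SE 0.49, adjusted p = 0.000173), from 11.48, 10.40 and 9.11 to 4.90 to 6.38.

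Among matrix genes Pcolce, an enhancer of the enzyme that trims fibrillar procollagens, showed the largest measured rise of the comparison, at 12.69 to 13.72 against 6.71, 4.61 and 4.80: 7.80 (SE 0.44, adjusted p = 2.1e-06). It was the only gene called among the 16 measured enzymes of collagen processing and crosslinking (13 tested), beside 5.70% of all genes tested called higher. Of 17 measured collagen chains 15 were tested and 3 rose, and 1 rose with close arrays averaged. Col5a2 rose by 5.62 (SE 0.78) and Col5a1 by 3.91 (SE 0.61, adjusted p = 0.00288, and 0.0678 with close arrays averaged), both chains of type V collagen, which starts fibrils.

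The main fibrillar collagens followed single lines. Col3a1 stood at 5.51 in D3, 11.10 in D3DP, 8.91 in MSN2, 9.02 in A5, 10.93 in H11, 13.80 in CarC and 13.53 in CarB, against 5.13, 4.37 and 4.16. D3 was next to the keratinocyte lines, and the rise of 5.85 (SE 1.55, adjusted p = 0.0389) was lost in 7 of the 10 fits without 1 line (adjusted p up to 0.111) and with close arrays averaged (0.0766). The other tested probe set of Col3a1 differed by 3.34 and was not called. Col1a2 was at 13.80 in CarC and 13.25 in CarB, at 9.79 in A5 and 8.10 in H11, and at 5.45 to 6.76 in D3, D3DP and MSN2, where the keratinocyte lines had 6.53, 5.46 and 5.12 (3.37, adjusted p = 0.27). Of 21 measured matrix glycoproteins and proteoglycans (17 tested) 1 rose (Ccn4, by 1.93) and 1 fell, beside 5.70% and 5.38% of all genes tested. Tnc, the gene of tenascin-C, fell by 6.23 (SE 0.80, adjusted p = 0.000948). Tnc is known as a stroma gene of wounds and tumours, and here it stood at 11.54, 11.58 and 12.08 in the keratinocyte lines and at 3.44 to 8.15 in the spindle lines.

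**Figure D4:**
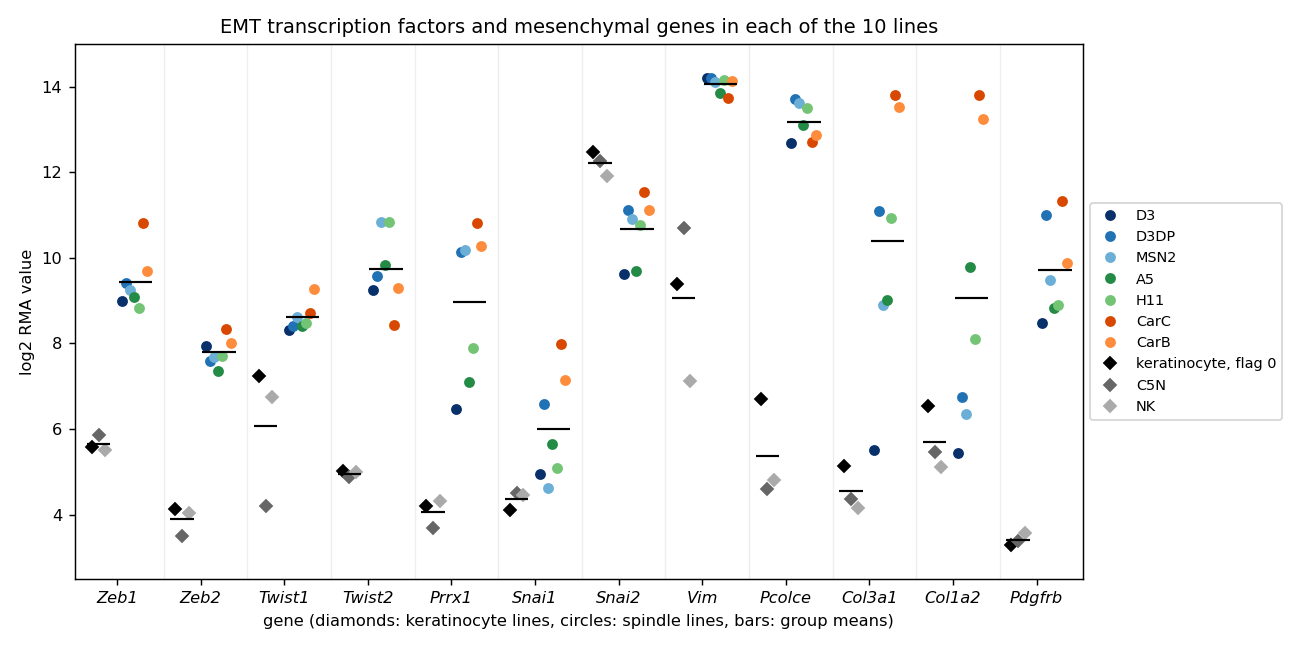
Log2 RMA values of EMT transcription factors and mesenchymal genes in the 3 keratinocyte lines (diamonds) and the 7 spindle lines (circles), with bars at the group means. Zeb1, Zeb2, Twist2, Vim, Pcolce and Pdgfrb are higher in every spindle line, Snai2 is lower in every one, and Col3a1 and Col1a2 are highest in CarC and CarB.

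The fibroblast marker list holds Col3a1, Col1a2, Col1a1, Pdgfra and Pdgfrb, so its level is not independent of the values of those genes. The mean log2 value over the 10 measured fibroblast markers was 9.75 in CarC and 8.38 in CarB, 5.14 to 6.57 in the other 5 spindle lines, and 4.25 to 4.73 in the keratinocyte lines. Of the 10, 6 were tested and 2 were called higher (Col3a1 and Pdgfrb), beside 5.70% of all genes tested. Without a filter 1 was called higher, and with close arrays averaged also 1. The number above the array median was 4 to 8 in the spindle lines, 2 to 4 in the keratinocyte lines and 0 to 8 in the non-spindle lines. The part of fibroblasts in any of these differences was not tested. Markers of endothelial cells, melanocytes and leukocytes gave 0 calls by limma, and 0 at an unadjusted p under 0.05, among the 9 that passed the filter, and their mean levels in the spindle lines ran from 4.33 to 4.89. Mbp, a Schwann cell marker that other cells also express, fell by 2.85 (SE 0.34).

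Several of the largest rises lay outside the lists. Nr2f1, an orphan nuclear receptor, was at 9.46 to 12.35 against 4.41, 3.68 and 3.51, a rise of 6.62 (SE 0.56, adjusted p = 4.68e-05). The water channel gene Aqp1 rose by 6.46 (SE 0.61), the secreted glycoprotein gene Fstl1 by 6.03 (SE 0.82) and Tnfaip2, induced by inflammatory cytokines, by 5.36 (SE 0.29). Fstl1 was at 6.84 in D3 and at 9.06 or more in the other spindle lines, with keratinocyte lines at 3.72 to 3.86. Cavin2, a coat protein of caveolae, rose by 6.19 (SE 0.56), whereas the caveolin genes Cav1 (-0.25) and Cav2 (-1.63) did not pass. Ankrd1, a target of YAP, was at 10.06 to 11.95 against 4.18, 8.70 and 3.99 (5.47, SE 0.91, adjusted p = 0.00388, and 0.108 with close arrays averaged).

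Of 22 measured receptor tyrosine kinases 8 fell and 2 rose (19 tested, median -0.48), beside 5.38% and 5.70% of all genes tested. Of those tested 9 were not called, and 4 were lower and 2 higher with close arrays averaged. Fgfr2, whose epithelial isoform answers to mesenchymal FGFs, was at 5.16 to 5.70 against 10.57, 9.55 and 10.23, a fall of 4.67 (SE 0.22, adjusted p = 4.93e-07). Erbb3 fell by 3.87 (SE 0.35) and Epha1, an ephrin receptor of epidermis, by 3.45 (SE 0.38). Pdgfrb, a receptor of fibroblasts and pericytes, was at 8.49 to 11.34 against 3.30, 3.38 and 3.56, a rise of 6.29 (SE 0.60, adjusted p = 0.000109). The collagen receptors moved apart, with Ddr1 lower by 1.98 and Ddr2 higher by 2.91 (SE 0.51). Neither Egfr (-1.09), Met (-1.23) nor Epha2 (-0.17), receptors of epithelial cells, nor Fgfr1 (1.63) passed the test. Pdgfra was at 13.04 in CarC and 12.27 in CarB and at 5.85 to 9.57 in the other spindle lines (3.54, adjusted p = 0.18). Axl was not called (1.16, adjusted p = 0.257). It stood at 12.46 in the unflagged keratinocyte line and at 9.99 and 9.60 in C5N and NK. Of the fits without 1 line only that without the unflagged line called it (2.04, adjusted p = 0.0221). The other 9 did not (adjusted p up to 0.633), nor did the fit with close arrays averaged (0.566).

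Ligands of the EGF receptor fell in 2 of 7 measured genes (6 tested), beside 5.38% of all genes tested. Epgn, the gene of epigen, fell by 5.57 (SE 0.55, adjusted p = 0.000144), with CarB at 6.38 and the other spindle lines at 4.14 to 4.89. Tgfa fell by 3.53 (SE 0.66, adjusted p = 0.00747), with D3 at 7.30 and the others at 3.77 to 5.15. Its other 2 probe sets differed by -0.54 and -0.15 and were not called. With the probe set chosen by the mean over the 10 lines, Tgfa was not called (adjusted p = 0.534). Of 15 measured feedback and target genes of ERK signalling 14 were tested and 3 rose, beside 5.70% of all genes tested. With close arrays averaged 1 rose. Fosl1, an AP-1 subunit, rose by 3.10 (SE 0.52, adjusted p = 0.00409, and 0.0824 with close arrays averaged) and Dusp4, a phosphatase induced by ERK, by 1.91 (SE 0.34). Dusp6 (-0.74), the phosphatase that answers most directly to ERK, did not pass the test.

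Of 28 measured ligands, traps, receptors and targets of the TGF-beta family 4 rose and 3 fell, beside shares of 5.70% and 5.38% over all genes tested, and 1 rose and 3 fell with close arrays averaged. Fst, the gene of follistatin, which traps activin, fell by 6.44 (SE 1.03, adjusted p = 0.00323), from 13.02, 12.59 and 13.37 to a range of 4.46 in D3DP to 9.42 in CarB. Inhbb, an activin subunit, fell by 4.45 (SE 0.85) and Bmp7 by 2.08 (SE 0.23). Grem1, a secreted BMP antagonist, rose by 5.04 (SE 0.71, adjusted p = 0.00154), to 8.70 to 11.94. The co-receptor gene Tgfbr3 was at 8.94 to 12.10 against 9.74, 5.17 and 4.58, so the unflagged keratinocyte line lay in the spindle range, and its rise of 4.28 (SE 1.03, adjusted p = 0.0255) was lost without C5N or NK (adjusted p up to 0.105) and with close arrays averaged (0.191). Tgfb1 (0.41) and Tgfb2 (1.09) did not pass the test.

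Of 16 measured Notch pathway genes 11 were tested and 6 fell, the median over the 16 was -0.29, and 5 were lower with close arrays averaged. Notch1 was at 6.04 to 8.27 against 11.25, 10.67 and 10.18, a fall of 3.53 (SE 0.51, adjusted p = 0.00177). The ligand genes Dll1, Jag1 and Jag2 fell by 4.32 (SE 0.41), 3.86 (SE 0.76) and 3.84 (SE 0.45). Hes1, a direct target of Notch signalling, fell by 2.07 (SE 0.23, adjusted p = 0.000356), with 7.07 to 7.89 against 9.54, 9.77 and 9.53. D3 held the highest Jag1 of the spindle lines, at 9.61, while A5 and H11 held the highest Jag2, at 7.20 and 6.98. The receptor gene Notch2 (0.06) and the target genes Hes5 (-0.01) and Hey1 (-0.13) did not pass the test.

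Of 31 measured Wnt pathway genes 24 were tested and 3 fell, beside 5.38% of all genes tested. All 3 were ligands (Wnt4, Wnt7a and Wnt10a), and 1 fell with close arrays averaged. Wnt4 fell by 3.78 (SE 0.45, adjusted p = 0.000511) and Wnt10a by 3.25 (SE 0.66, adjusted p = 0.012, and 0.079 with close arrays averaged). Wnt7a fell by 2.52 (SE 0.67, adjusted p = 0.0399), but its groups overlapped and its other probe set differed by -0.19. The call was lost in 7 of the 10 fits without 1 line (adjusted p up to 0.144, held without A5, H11 or C5N). Averaging close arrays (0.228), or choosing the probe set by the mean over the 10 lines, also lost the call. Axin2, a target of canonical Wnt signalling, did not pass (-1.02). Of 13 measured genes of the insulin-like growth factor axis 12 were tested and 2 fell, beside the same 5.38%. Igfbp3 fell by 6.16 (SE 0.77), and Igfbp2 by 6.50 (SE 1.02, adjusted p = 0.0029), with the unflagged keratinocyte line at 6.47, between the spindle lines (3.65 to 3.87) and C5N and NK (11.89 and 12.43). With close arrays averaged the adjusted p of Igfbp2 was 0.104.

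Of 25 measured chemokines and interleukins 4 rose and 1 fell (17 tested, median 0.09), beside 5.70% and 5.38% of all genes tested. With close arrays averaged 1 was higher. Ccl2, a monocyte chemoattractant, was at 8.22 to 10.46 against 6.51, 5.68 and 5.24, a rise of 3.40 (SE 0.45, adjusted p = 0.00108). Csf1, the growth factor of macrophages, rose by 3.61 (SE 0.63, adjusted p = 0.00501, and 0.0731 with close arrays averaged). Ccl7, also a monocyte chemoattractant, rose by 2.69 (SE 0.69, adjusted p = 0.0326), with values of 8.55 in CarC, 8.91 in CarB and 5.90 to 6.64 elsewhere in the spindle group. Its call was lost without D3DP or any 1 keratinocyte line (adjusted p up to 0.0926) and with close arrays averaged (0.129). Cxcl16, a chemokine with a membrane-bound form, fell by 2.79 (SE 0.39, adjusted p = 0.00146, and 0.074 with close arrays averaged).

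Genes of proliferation and of the interferon response were not called. Limma called 0 of 19 measured mitotic and replication genes (median -0.21), with 1 at an unadjusted p under 0.05, and 0 of 19 measured interferon-stimulated genes (median 0.58), with 3 at that level, and the fit without a filter also called 0 of each. Single lines stood apart in both lists. CarC had a mean log2 value of 7.83 over the mitotic genes, where the other spindle lines had 10.38 to 10.90 and C5N and NK had 10.55 and 10.79, with the unflagged line between these and CarC, and without CarC 1 of these genes was called, as higher. Over the interferon-stimulated genes D3DP had 7.66 and CarC 7.18, where the other spindle lines had 5.46 to 6.32 and the keratinocyte lines 4.95, 5.92 and 4.93. The part of CarC's low mitotic genes in its other values was not tested. In class I antigen presentation Psmb10, an immunoproteasome subunit, rose by 1.5 (SE 0.31, adjusted p = 0.0123, 0.0556 without C5N and 0.141 with close arrays averaged). The class I heavy chain gene H2-D1 was at 10.61 to 12.68 in the spindle lines and at 12.41 in the unflagged keratinocyte line, 8.94 in NK and 5.83 in C5N. It was not called with all lines (2.34, adjusted p = 0.223). Of the fits without 1 line only that without the unflagged line called it (4.01, adjusted p = 0.0189). The other 9 did not (adjusted p up to 0.693), nor did the fit with close arrays averaged (0.516). Among 19 antioxidant genes Gpx2, a peroxidase of epithelia, fell by 4.90 (SE 0.77, adjusted p = 0.00305) and Gpx4, which clears lipid peroxides, rose by 1.52 (SE 0.24, adjusted p = 0.00316). Neither was called with close arrays averaged (0.107 and 0.0537), and the unflagged line held 7.33 of Gpx2 against 11.49 and 11.76 in C5N and NK.

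**Figure D5:**
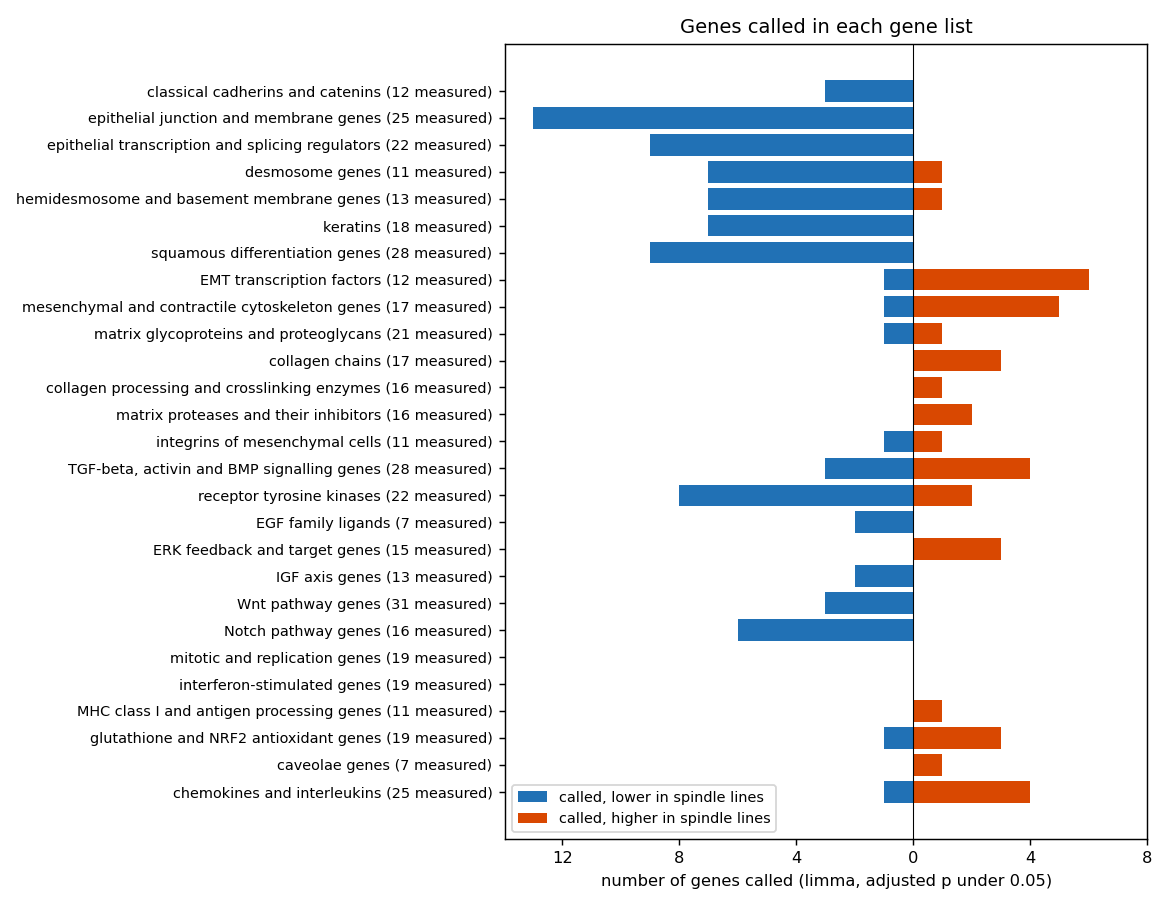
Number of genes called lower (bars to the left) and higher (bars to the right) in spindle lines in each gene list, with the number of measured members in brackets. The epithelial lists hold mostly falls, 13 of them among junction genes, with 1 rise each among desmosome (Pkp2) and hemidesmosome genes (Dst, whose direction depends on the probe set), the EMT factors hold 6 rises and 1 fall, and the mitotic and interferon lists hold 0 calls.

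The 3 keratinocyte lines were not alike. Among the 11704 genes the unflagged line lay 2 units or more above both others for 182 genes and below both for 89, beside 82 and 109 for C5N and 82 and 96 for NK. Fbln2, a matrix glycoprotein, was at 12.17 in the unflagged line and at 4.29 and 3.88 in C5N and NK, and Plod2, a collagen lysyl hydroxylase, at 10.22 against 3.39 and 4.10. Xist, the RNA of X inactivation, was at 13.12 in the unflagged line against 5.31 and 5.67, and it also split the spindle lines, with 12.74 in A5, 12.89 in H11, 12.11 in CarB, 8.44 in CarC and 5.51 to 5.68 in D3, D3DP and MSN2. Sncg, the gene of gamma-synuclein, was at 11.44 against 4.72 and 4.59, and Gnai1, a G protein subunit, at 3.86 against 11.13 and 11.64. Timp3, a metalloprotease inhibitor, was at 7.13 against 13.11 and 12.86, and Ptn, the growth factor pleiotrophin, at 3.50 against 10.92 and 11.49. For Plod2 and Timp3 the unflagged line lay in the range of the spindle lines (7.47 to 10.49 and 4.24 to 9.72). Without it, with only C5N and NK left, their differences were 4.72 and -5.37. Both genes were picked because the unflagged line stood apart, so the fit without that line is no test of them. Without the unflagged line 1133 genes were called, 871 of them among the 1297.

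The carcinoma lines without spindle pathology spanned both groups for Cdh1, Vim and Zeb2. In these 12 lines Cdh1 ran from 3.25 to 11.78 (median 10.97), Vim from 5.14 to 14.41 (median 12.97) and Zeb2 from 4.13 to 8.89 (median 7.12). The papilloma line P6 was at 11.38 for Cdh1, 7.16 for Vim and 3.81 for Zeb2, next to the keratinocyte lines. For Tnfaip2 P6 stood at 9.81, within the spindle range of 9.53 to 10.45, and the non-spindle lines ran from 5.21 to 10.14. For Mcam the non-spindle median of 6.25 lay within the spindle range, and P6 stood at 8.47. Of the largest rises, non-spindle medians were 10.96 for Pcolce, 10.06 for Ankrd1, 9.63 for Fstl1, 9.04 for Cavin2 and 8.82 for Aqp1. They were lower for Col3a1 (6.13), Col5a2 (4.99) and Pdgfrb (3.92). Nr2f1 ran from 5.71 to 10.44 in the non-spindle lines, above every keratinocyte line. Spindle and keratinocyte lines differ in both malignancy and morphology, so these cannot be told apart here. No test was made of the non-spindle lines or P6.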

How the data were processed

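RNA of 26 mouse skin lines was labelled and hybridised to Affymetrix M430 2.0 arrays, 1 per line. The deposited table holds log2 values for 45037 probe sets that the authors summarised with RMA, per the submitters' processing notes; its software and version were not given in the sources used here. Values ran from 2.28 to 14.92, and the medians of the 10 arrays from 5.04 to 5.15, so no further normalization was applied. Of the probe sets 34945 had 1 gene symbol in the platform annotation, 932 had several and 9160 none. Each of 18193 genes was read from its brightest probe set by the mean of the 26 arrays, and 11704 genes above the array median on at least 3 of the 10 arrays were tested with limma 3.58.1 in R 4.3.3 (lmFit and eBayes on the 10 lines, Benjamini-Hochberg adjustment, threshold 0.05). The labels used here pair no lines, and the fit had no covariate. The procedure was tested on simulated data with independent arrays and a single spread per gene. Such data leave out the closeness of some spindle lines, so they cannot show the error rate of the main fit.

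Gene lists and members were chosen with earlier results of these data known, and counts over them support nothing by themselves. Genes were named by rule: the 10 largest rises and falls, up to 4 called members of each list, all tested cadherins, EMT factors and basal markers, and the 4 genes furthest above or below in the unflagged keratinocyte line. Pkp2, Dst, Foxp1, Cald1, Nes, Ddr2, Bmp7, Krt8, Krt18, Col1a2, Pdgfra, Klf4, Hes1, Axl, H2-D1 and Lama3, list members cited only by their difference, and the genes whose promoters are printed, were chosen after their values were seen. The alternatives changed the filter, the choice of probe set, the spread, the weights, the centring and the lines included. The name of 1 keratinocyte line, and genes that titles or descriptions name, are not reported here.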

Additional observations from a re-analysis of the deposited data

Results flagged for a closer look

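In 8 of 115 genes examined, 1 spindle line lay further from the other 6 than Dixon's critical value for 7 values allows. Chance alone flags about 1 in 20 groups of independent normal values. Some spindle lines lie close together and most of these genes were chosen as called, so the chance rate here is not known. CarC held 3 of them: Trp63 at 7.78 (nearest other spindle line 5.0), Perp at 3.96 (nearest 8.92) and Timp1, a metalloprotease inhibitor, at 10.04 (nearest 10.97). MSN2 was high for Lamb3, at 7.24 (nearest 5.39), and for the keratin gene Krt15, at 6.30 (nearest 5.23). CarB was high for Twist1, at 9.27 (nearest 8.71), and for Epgn, at 6.38 (nearest 4.89). D3 was high for Tgfa, at 7.30 (nearest 5.15).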

How the results depend on the processing

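The count of 1297 called genes became 2289 with every probe set tested and 289 with close arrays averaged, the latter chosen after seeing the data. Leaving out 1 line gave counts from 909 (without D3DP) to 1342 (without CarC). The other alternatives stayed within 1.5 times the main count, from 917 with weights per group to 1314 with arrays centred. Dst turned to -2.47 with probe sets averaged. Of genes that were not called, leaving out single lines spread the difference from -1.40 to 1.27 for Cdh11, -0.78 to 0.00 for Cdh13, -0.28 to 1.42 for Ctnna1, -0.24 to 0.17 for Ctnnb1 and -0.58 to 0.05 for Ctnnal1; the cause was not tested. Of 102 called genes named by the rule or after their values were seen, 57 were called in every setting, 38 lost the call with close arrays averaged and 22 without 1 line. No paired analysis was possible because the replicate numbers of the 2 groups only name lines in accession order. Signals below the array median limit how large a fall or a rise can be measured.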
